A study of Mus musculus with 20 samples.

Results

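Mouse embryos of stage E10.5 (E for embryonic day) were compared with embryos of stage E8.5, over the 2 days that follow the first beating of the heart. The comparison used the 3 arrays labelled E10.5 and the 3 labelled E8.5, 6 of the 20 arrays of a developmental series, and every gene read by a probe set with a single gene symbol: 18193 genes, of which 14044 were bright enough on at least 2 arrays to be tested. All embryos were wild-type C57BL/6 mice kept specific-pathogen free, taken whole except for the amnion, with both sexes mixed. Each array held total RNA pooled from several embryos, on an Affymetrix Mouse Genome 430 2.0 array, and the labels call the pools of a stage biological replicates. The labels do not say how many embryos a pool held, how many were male, or how much yolk sac, placenta or maternal tissue came with them. No treatment or mutation was involved, so stage was the sole difference by design. The 3 arrays of E9.5 were used to place a change in the first or the second day, and the 3 of E7.5 are given as an earlier level.

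At E8.5 the mouse embryo has a few somites, an open neural tube, a heart tube and a yolk sac in which the first red cells form. By E10.5 the neural tube has closed, the first neurons send out axons, limb buds and pharyngeal arches stand out from the trunk, muscle begins to form in the somites and a liver bud has grown from the gut. At the caudal end the tail bud, a pool of progenitors that Wnt and FGF signals maintain, goes on adding somites during these days.

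A value is the deposited MAS5 signal of the gene's probe set, on a linear scale with arbitrary units on which every array had the same trimmed mean. A change is the difference of mean log2(signal + 25.9), E10.5 minus E8.5, with its standard error (SE) from a limma fit over all arrays. The constant 25.9 keeps dim signals from dominating and makes the change of a dim gene smaller than the ratio of its signals. A gene is said to have risen or fallen where the Benjamini-Hochberg adjusted p was below 0.05 and the change at least 2-fold. Signals of different genes come from different probes and are not compared with each other.

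The 6 arrays were alike within a stage. Log2 values correlated at r = 0.979 to 0.984 between arrays of E8.5, 0.980 to 0.983 between arrays of E10.5, and 0.928 to 0.938 across the stages, and no pair of arrays held identical values. Array medians ran from 69.0 to 80.4 at E8.5 and from 79.9 to 91.1 at E10.5. Since RNA came from whole embryos, a change in the number of cells of a type and a change of RNA per cell cannot be told apart, here and in every result that follows.

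Of the genes tested, 1191 (8.48%) rose and 444 (3.16%) fell, 11.6% in all. The median change over all genes was 0.05, and more genes rose than fell. At least 4-fold, 251 genes rose and 87 fell, 63 and 28 at least 8-fold, and 12 and 12 at least 16-fold. In 1597 of the 1635 called genes the E8.5 and E10.5 arrays did not overlap, against 47.5% of all genes tested. Of the called genes, 697 had another tested probe set, and in none of them was another probe set called in the opposite direction.

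Genes of neurons led the rises. Doublecortin (Dcx), a microtubule protein of migrating young neurons, had signals of 4.64, 6.76 and 15.1 at E8.5 and 3111, 2994 and 3037 at E10.5. It rose by 6.48 ± 0.22 on the log2 scale (adjusted p = 1.4e-14), the largest rise of any gene, from a level at E8.5 that was dim on every array. Epha3, a receptor for ephrins on growing axons and on mesenchyme, had 6.30, 16.03 and 28.7 at E8.5 and 2193, 2082 and 2178 at E10.5 and rose by 5.70 ± 0.20 (adjusted p = 3.0e-14). Nhlh2, a helix-loop-helix factor of early neurons, had 4.13, 18.3 and 21.2 at E8.5 and 1802, 1893 and 1699 at E10.5 and rose by 5.52 ± 0.24 (adjusted p = 9.3e-13). For all 3 genes every E10.5 array stood far above every E8.5 array. The next largest rises were those of Pantr1, a long noncoding RNA, Rufy3, a protein of the growth of axons, and Bcl11a, a zinc finger factor of neurons and blood cells, by 4.50, 4.31 and 4.31. Other probe sets of Rufy3 moved the other way without being called, so its rise rests on the probe set used. Fabp7, Lhx9, Neurog1, Insm1, Mab21l1, Shox2, Nefm, Megf10 and Tnnc2 completed the 15 largest rises, with changes from 4.27 down to 3.76.

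The largest falls belonged to other tissues. Spink1, a secreted protease inhibitor, had signals of 3489, 3202 and 3512 at E8.5 and 57.6, 30.5 and 24.4 at E10.5 and fell, with a change of -5.79 (SE 0.20, adjusted p = 1.7e-14). Phlda2, an imprinted brake on placental growth, had 5742, 5520.4 and 5825 at E8.5 and 151, 144 and 134 at E10.5, a change of -5.08 ± 0.14 (adjusted p = 1.0e-15). Car4, a membrane-bound carbonic anhydrase, had 5882, 5347 and 5662 at E8.5 and 157, 156 and 126 at E10.5, a change of -5.04 ± 0.12 (adjusted p = 1.4e-16). In each of the 3 the lowest E8.5 array was many times brighter than the highest E10.5 array. Apoc2, Prl8a2, Cdx2, Amn, Nr6a1, S100g, Cdx1, Cdx4, Prtg, Nepn, Lin28a and Car7 completed the 15 largest falls, with changes from -4.54 to -3.81.

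**Figure D1:**
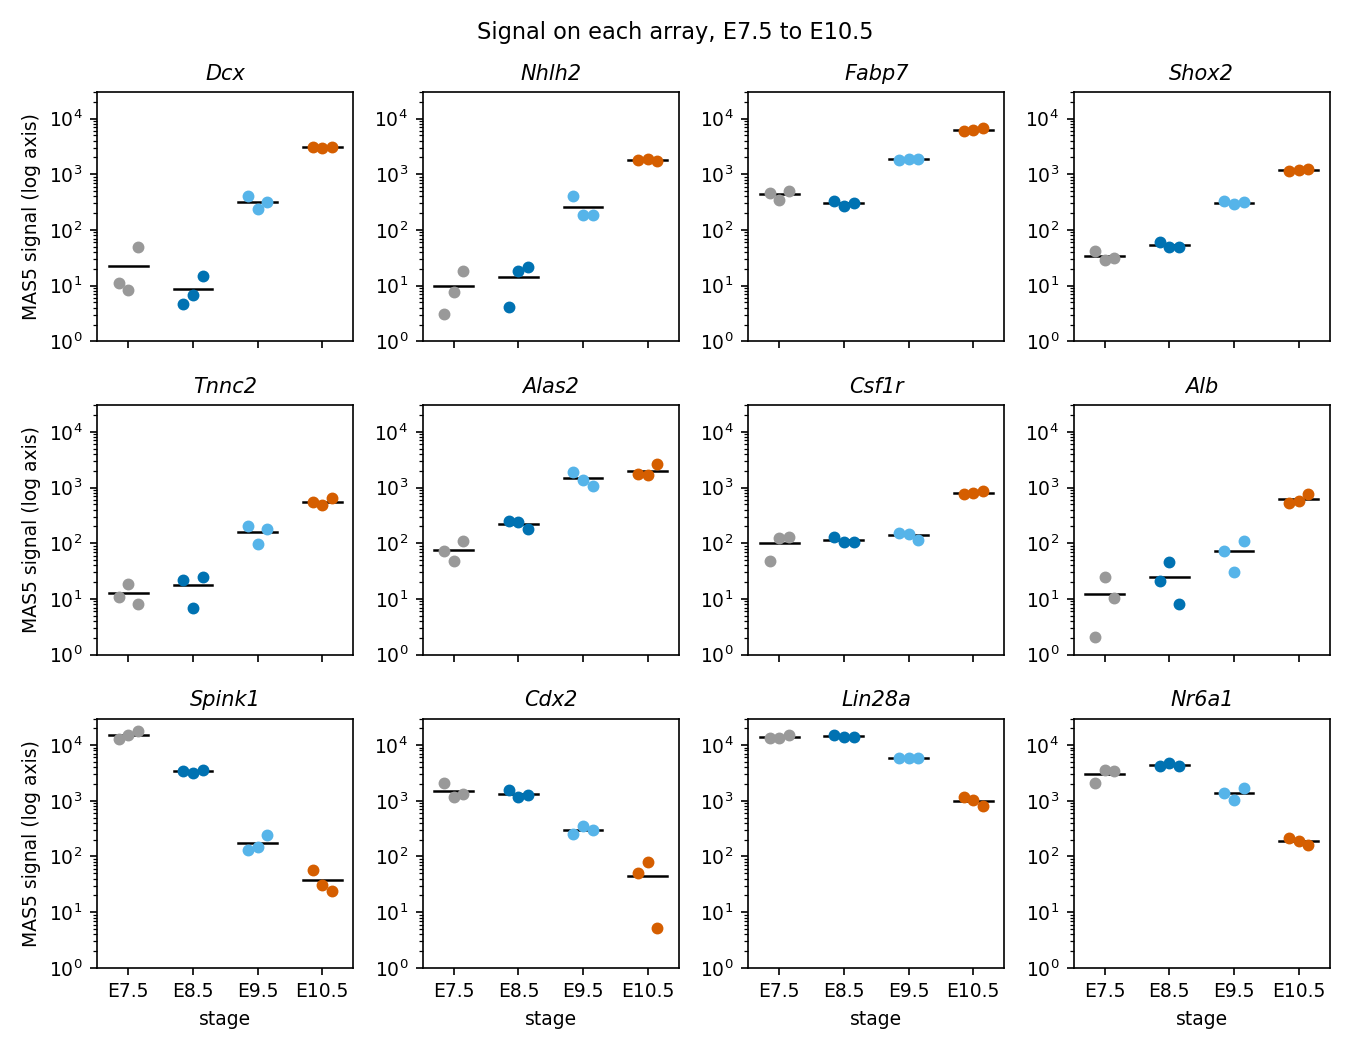
MAS5 signal (log axis, arbitrary units) of 12 genes on each array of the first 4 stages of the series (points, 3 arrays a stage, line at the mean). The mean of Dcx goes from 8.84 at E8.5 to 3048 at E10.5, and that of Lin28a from 14347 to 1006, with no overlap between the arrays of these stages in any of the 12 genes.

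E9.5 was set against the midpoint of E8.5 and E10.5 on the log2 scale, a contrast that shares arrays with the change but whose estimate is uncorrelated with it in this design. A gene counted as above or below the midpoint where the adjusted p was below 0.05 and the departure at least 0.5. In a rising gene, E9.5 above the midpoint means that more of the rise lay in the first day, and in a falling gene E9.5 below the midpoint means the same of the fall. E9.5 was above in 78 genes (0.555%) and below in 253 (1.8%), 2.36% in all. Among the 1191 genes that rose, 56 were above and 75 below. Among the 444 that fell, 6 were above and 62 below, and among the 12409 that were not called 16 were above and 116 below, so departures below the midpoint outnumbered those above in all 3 groups. Of the 66 named genes with a departure, 42 kept it without each of the 9 arrays of E8.5 to E10.5 in turn, and the named genes said here to lie above or below kept it unless a loss is stated. For most called genes E9.5 did not depart from the midpoint, which does not show that the change was even over the days. In a dim gene the position of E9.5 also depends on the constant 25.9.

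Gene lists of tissues and pathways are described by how many members rose or fell out of those bright enough to be tested, and by the median change of those members, beside the median of 0.05 for all genes. The lists held 979 different tested genes. The counts can be read beside the 8.48% of all genes tested that rose and the 3.16% that fell.

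The factors that turn neural progenitors into neurons and the genes of neurons themselves were described apart. Of 34 measured proneural and progenitor factors, 20 rose and 1 fell, with a median change of 1.51. Neurog1, a proneural factor of sensory and spinal neurons, had 33.00, 46.8 and 10.6 at E8.5 and 908, 950.3 and 797 at E10.5 and rose by 4.08 ± 0.25 (adjusted p = 9.8e-11). Neurod1 and Neurod4, helix-loop-helix factors that act after the neurogenins, rose by 3.70 ± 0.21 and 3.43 ± 0.26. Zic1 and Pou3f3, factors of the dorsal neural tube and of brain progenitors, rose by 3.26 ± 0.16 and 3.38 ± 0.12. Fabp7, a fatty acid binding protein of radial glia, had 338, 266 and 309 at E8.5 and 5874, 6249.7 and 6875 at E10.5, a change of 4.27 ± 0.11. The general progenitor factor Sox2 was bright at both stages, with 2862, 3901 and 3724 at E8.5 and 3429.8, 3982 and 4282 at E10.5, and was not called (0.16 ± 0.12, adjusted p = 0.30). Sox3 and the Notch ligand Dll1 were not called either, with changes of -0.18 and 0.02.

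In 7 of these 34 factors E9.5 was above the midpoint and in none below. Neurog1 had a mean of 30.1 ± 18.3 (SD, n = 3) at E8.5, 549 ± 62.8 at E9.5 and 885 ± 78.9 at E10.5, and its E9.5 value lay 1.37 ± 0.22 above the midpoint (adjusted p = 6.3e-04). Neurod4 went from 19.6 ± 8.88 to 374 ± 43.9 and then 457 ± 24.8, a departure of 1.44 ± 0.22 (adjusted p = 5.7e-04). In both genes most of the rise, on the log2 scale, lay in the first day.

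Of 44 measured genes of differentiating neurons, 38 rose and none fell, with a median change of 2.23. This is 86.4% of the list, where 11.6% of all genes were called. Nefm, the medium neurofilament subunit, had 359, 284 and 307 at E8.5 and 4892, 4739.5 and 4545 at E10.5 and rose by 3.80 ± 0.16 (adjusted p = 4.3e-13). Tubb3, the neuronal beta-tubulin, had 279, 260.2 and 254 at E8.5 and 2785, 2911 and 2967 at E10.5 and rose by 3.33 ± 0.10. Stmn4 and Stmn3, which regulate microtubules, rose by 3.64 ± 0.34 and 3.49 ± 0.15, and Elavl4, an RNA-binding protein of postmitotic neurons, by 3.42 ± 0.17. The probe set of Stmn3 is of a class that may also bind related transcripts. Insm1, a zinc finger factor of newborn neurons, rose by 4.07 ± 0.30. The members that were not called were Ncam1, Prph, Gad2, Dpysl2, Chga and Gad1. Of these, Ncam1, a broad neural adhesion molecule, was at 643 ± 3.57 and 1276 ± 99.5 and was called only without E10.5 replicate 3 (1.02), and Dpysl2, already bright at E8.5, changed by 0.64 ± 0.10.

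In 10 of the 44 neuron genes E9.5 was below the midpoint, and in none above. Stmn4 had 4.66, 14.3 and 58.03 at E8.5, 121, 15.7 and 41.03 at E9.5 and 497, 517 and 679 at E10.5, a departure of -1.16 ± 0.29 (adjusted p = 0.034) that was lost without E8.5 replicate 3, E10.5 replicate 2 or 3 or E9.5 replicate 2 or 3 (adjusted p = 0.051 to 0.25). The arrays of E8.5 and E9.5 were all below those of E10.5. Bcl11a had the same order, at 25.3 ± 16.3, 65.96 ± 3.95 and 951 ± 62.7. The proneural factors and the neuron genes thus departed from the midpoint in opposite directions, 7 to 0 and 0 to 10, though no test compared the lists. On leaving out an array, 6 to 8 proneural factors were above and 7 to 12 neuron genes below. Without E8.5 replicate 2 or 3, 1 neuron gene was above. With only the 9 arrays of E8.5 to E10.5 the neuron count below was 7. Among all genes that rose, 4.70% were above and 6.30% below. The 3 neuron markers used to check the tissue, Tubb3, Dcx and Elavl4, summed to 368 to 386 at E8.5, 1235 to 1690 at E9.5 and 7085 to 7467 at E10.5.

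**Figure D2:**
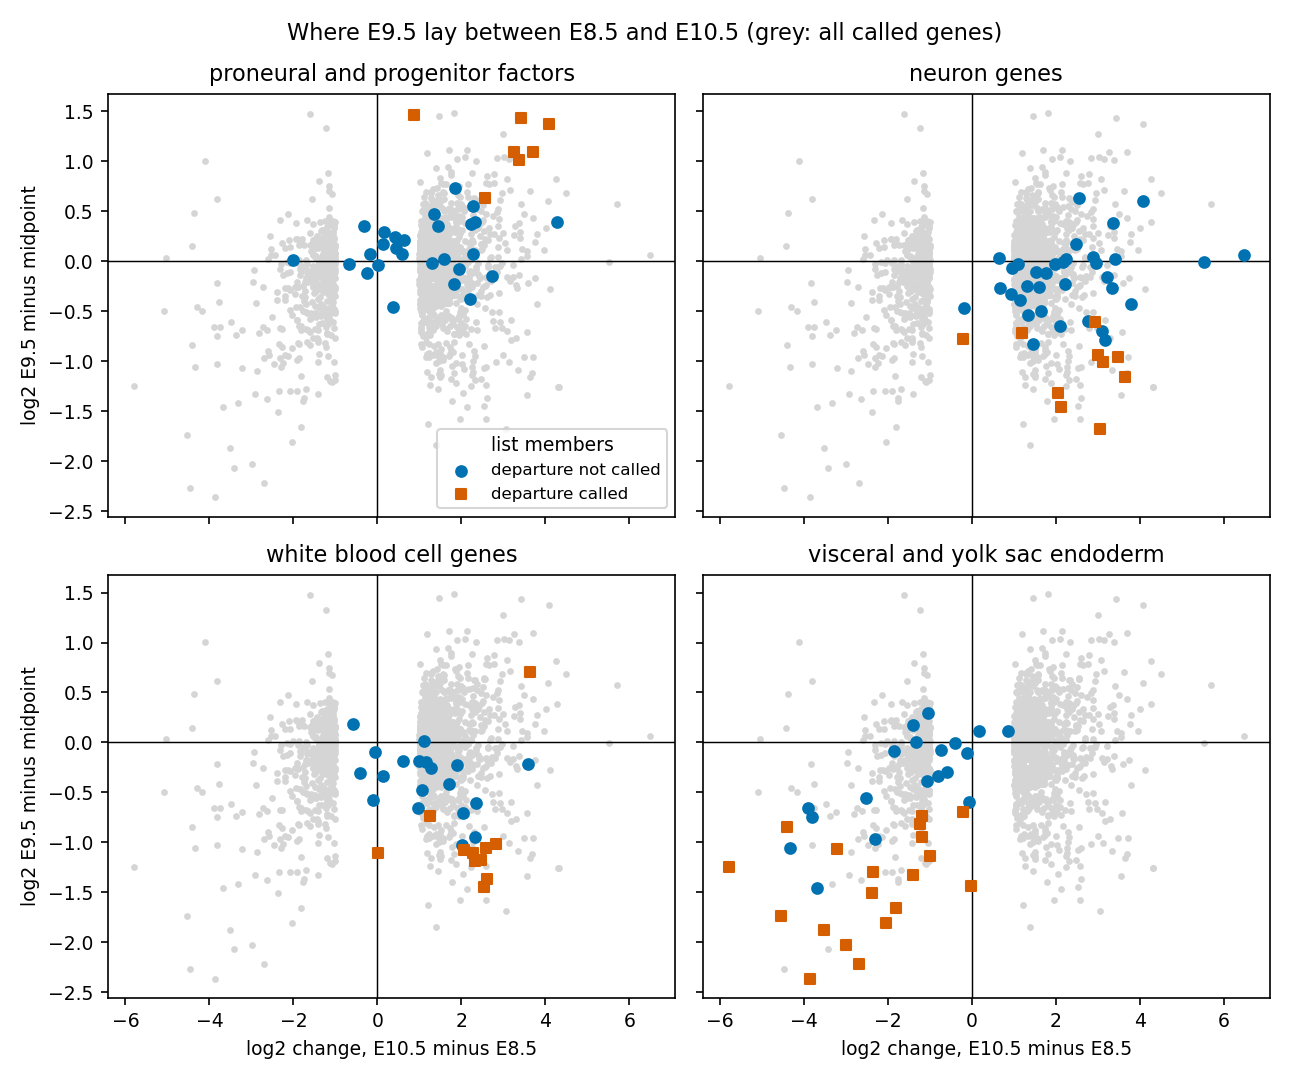
Departure of E9.5 from the midpoint of E8.5 and E10.5 (vertical, log2) against the change from E8.5 to E10.5 (horizontal, log2) for members of 4 lists, with all 1635 called genes in grey. Squares mark members with a called departure: 7 proneural factors above 0, and 10 neuron genes and 19 yolk sac endoderm genes below 0.

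Transcription factors that divide the spinal cord and hindbrain into neuron classes moved less as a group. Of 33 measured, 10 rose and 2 fell, with a median of 0.34. Lhx9, a LIM factor of dorsal interneurons, limb mesenchyme and gonad, had 19.4, 9.93 and 53.2 at E8.5 and 925, 1021 and 870.1 at E10.5 and rose by 4.26 ± 0.26 (adjusted p = 9.8e-11). Foxp2, Dbx1, Pou4f1 and Tlx3, the last 2 of sensory neurons, rose by 2.89, 2.39, 2.31 and 2.09, and Isl1, a factor of motor and sensory neurons, by 1.32. Evx1, which marks the tail bud at E8.5 and a class of interneurons later, changed by -1.83 ± 0.42. Of 27 factors of brain regions and sensory placodes, 9 rose and 6 fell. Mab21l1, an eye and midbrain gene, and Dlx1, a forebrain and arch homeobox factor, rose by 4.02 ± 0.19 and 3.15 ± 0.25. Egr2, which marks hindbrain rhombomeres, had 411, 412 and 451 at E8.5 and 33.6, 27.8 and 78.8 at E10.5 and fell, with a change of -2.70 (adjusted p = 1.2e-07). Gbx2 of the anterior hindbrain changed by -1.71 ± 0.21, and Otx2 of the forebrain and midbrain was not called at -0.45 ± 0.17.

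Of 39 axon guidance genes, 10 rose and 1 fell, with a median of 0.44. Dcc, the netrin receptor of commissural axons, had 53.2, 62.2 and 60.3 at E8.5 and 822, 777 and 817 at E10.5 and rose by 3.30 ± 0.14 (adjusted p = 5.4e-13), with E9.5 at 130.0 ± 17.1, below the midpoint. The midline repellents Slit2 and Slit1 rose by 2.04 ± 0.10 and 1.58 ± 0.28, and the semaphorin Sema3d by 1.74 ± 0.22. Sema3e, another semaphorin, changed by -1.56 ± 0.33, the sole fall. Of 18 neural crest, Schwann cell and melanocyte genes 5 rose and none fell, Fabp7 among them. Ednrb, the endothelin receptor of migrating crest, rose by 1.78 ± 0.12 and Dct, an enzyme of melanin synthesis, by 1.76 ± 0.30. Sox5 and Tfap2b also rose, while Snai2 and Ets1 of early crest changed by 0.84 and 0.34 and were not called.

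Hox genes lie in clusters in which the gene's position matches the body level it patterns, with low paralogue numbers in the hindbrain and high ones in the tail, late limb and urogenital region. Calls were most frequent at the high end of the clusters. Among paralogues 9 to 13, 7 of 11 measured genes rose and none fell, with a median of 1.96. Hoxd13 had 41.8, 85.5 and 38.5 at E8.5 and 296, 308 and 286 at E10.5 and rose by 2.04 ± 0.23 (adjusted p = 5.1e-07). Hoxa10, Hoxc10 and Hoxd10 rose by 2.12 ± 0.26, 2.14 ± 0.17 and 2.13 ± 0.21, and Hoxa11, Hoxd11 and Hoxd12 by 1.89 ± 0.17, 1.96 ± 0.30 and 2.00 ± 0.32. Every tested gene of paralogue numbers above 9 thus rose, and the 4 genes of number 9 were not called, with Hoxa9 at 2614 ± 178 and 1818 ± 139.6 and Hoxb9 changing by -0.80. The other genes of these paralogues on the array, all numbered above 9, were too dim to be tested. With no brightness filter 7 of 14 rose, with a median of 1.33. Hoxc10 was above the midpoint at E9.5, with a mean of 438 ± 25.4.

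Of 10 measured genes of paralogues 1 to 4, 1 rose and 2 fell, with a median of -0.07. Hoxb1, a marker of hindbrain rhombomere identity, had 787, 834 and 832 at E8.5 and 128, 121 and 143 at E10.5, a change of -2.43 ± 0.16 (adjusted p = 2.3e-10). Hoxd1 had 870.4, 697 and 671 at E8.5 and 157, 81.7 and 137 at E10.5, a change of -2.38 ± 0.21. The arrays of the 2 stages did not overlap for either gene. Of the other genes of paralogues 1 to 4 only Hoxa4 was called (1.09 ± 0.25), and that call was lost under both other scalings and without E8.5 replicate 1, where its change was 0.90. Among paralogues 5 to 8, Hoxc5 rose by 1.82 ± 0.24, Hoxc8 had 1543, 1628 and 1518 at E8.5 and 604, 514 and 620.5 at E10.5 and fell, with a change of -1.40, and the other 6 were not called.

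**Figure D3:**
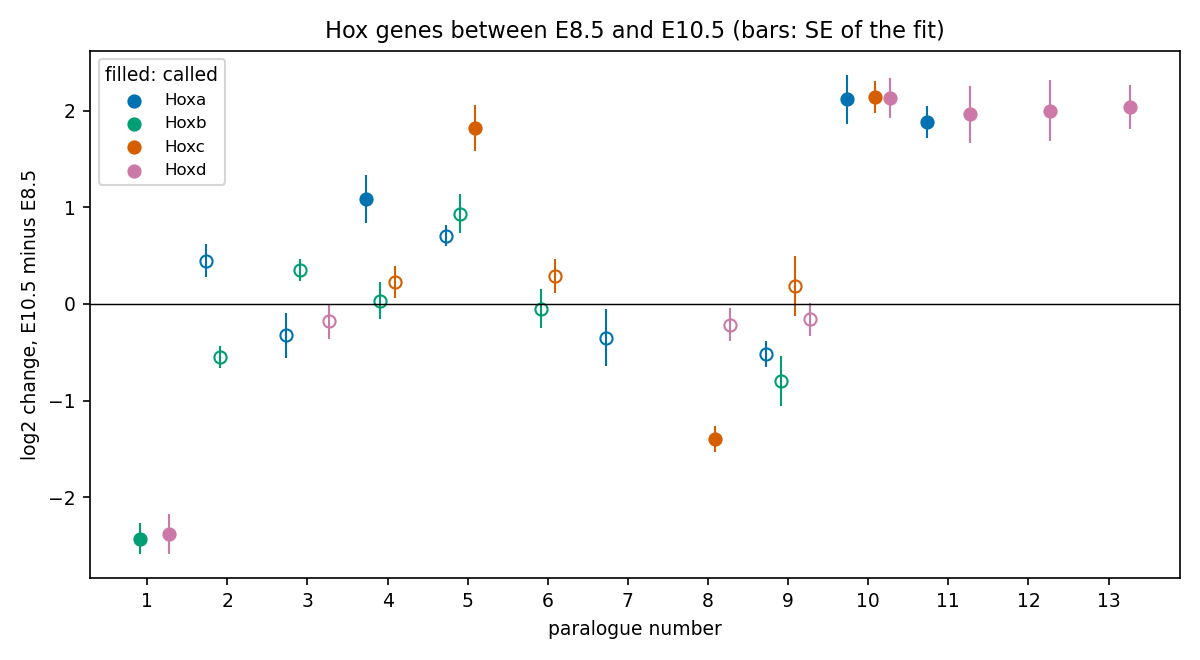
Change from E8.5 to E10.5 (log2, with the SE of the fit) of 29 Hox genes by paralogue number, coloured by cluster, filled where called. Hoxb1 and Hoxd1 lie at -2.43 and -2.38, and the 7 tested genes numbered 10 to 13 lie between 1.89 and 2.14.

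Limb buds appear between these stages. Of 31 limb bud genes 8 rose and 3 fell, with a median of 0.27. Shox2, a homeobox factor of the upper limb and the heart's pacemaker, had 61.2, 48.9 and 49.1 at E8.5 and 1156, 1201 and 1240.0 at E10.5 and rose by 3.96 ± 0.12 (adjusted p = 4.1e-15). Tbx15 and Prrx1, of limb and other mesenchyme, rose by 3.31 ± 0.26 and 2.64 ± 0.15, Tbx2 by 2.03 ± 0.19 and Asb4 by 2.00 ± 0.13. Tbx5, which starts the forelimb and is also a heart gene, was at 116 ± 27.8 and 236 ± 14.05, a change of 0.90 ± 0.37 that was not called (adjusted p = 0.059). The hindlimb factor Tbx4 changed by -0.49 ± 0.18 and Shh, the ligand of the limb's zone of polarizing activity and of the floor plate, by 0.38 ± 0.10. Neither was called. Some members of this list, such as Shh and Hand2, are also expressed elsewhere in the embryo.

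In the pharyngeal arches and face, 9 of 29 genes rose and 3 fell. Lhx8 and Barx1, homeobox factors of the first arch, rose by 3.15 ± 0.24 and 3.00 ± 0.27, with E9.5 above the midpoint for Barx1. Msc, a factor of arch muscle, rose by 1.94 ± 0.25. Gsc, a homeobox gene of the gastrula and later of the arches, had 31.9, 55.4 and 35.4 at E8.5, 3.05, 3.92 and 4.94 at E9.5 and 134, 149.7 and 159 at E10.5, so it was lowest at E9.5 and rose afterwards (1.39 ± 0.27 over both days). Osr1, of intermediate and lateral mesoderm, changed by -1.79 ± 0.33, and Hand1, of heart, arches and placenta, by -1.02 ± 0.24, a call that was lost without E8.5 replicate 3 (-0.94) or E10.5 replicate 1 or 2 (-0.88 and -0.87).

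Genes of the somites' derivatives rose in 6 of 19 cases and fell in 1. Pax1 and Uncx, of the sclerotome that forms vertebrae, rose by 1.87 ± 0.24 and 1.76 ± 0.20, and Twist2 and Tbx18 by 2.29 ± 0.14 and 1.66 ± 0.22. Meox1, of young somites, had 1667, 1439 and 1551 at E8.5, 1849.6, 1542 and 1704 at E9.5 and 1051, 568 and 538 at E10.5, level over the first day and then lower, a change of -1.15 ± 0.20 whose call was lost without E10.5 replicate 3 (-0.98). Its departure above the midpoint was lost in 6 of the 9 fits that left out 1 array (adjusted p = 0.054 to 0.11).

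Several genes of skeletal muscle rose from dim signals. Of 28, 11 rose and none fell, with a median of 0.69. Myog, the factor that commits myoblasts to fuse, had 4.20, 5.54 and 17.6 at E8.5 and 528, 380.5 and 369.9 at E10.5 and rose by 3.69 ± 0.22 (adjusted p = 7.4e-11). Tnnc2, fast troponin C, had 21.8, 6.95 and 24.8 at E8.5 and 538, 492 and 642 at E10.5 and rose by 3.76 ± 0.19. Myh3, the embryonic myosin heavy chain, and Mylpf, a fast myosin light chain, rose by 3.55 ± 0.17 and 2.79 ± 0.16. The earlier determination factors Myf5 and Myod1 were at 233 ± 67.4 and 126 ± 21.1 at E10.5, with changes of 1.59 ± 0.31 and 1.51 ± 0.28. Acta1, Tnnc1 and Des, which heart muscle also expresses, were already bright or present at E8.5 and changed by -0.16, -0.50 and 0.18 without being called.

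Most of the tail bud genes fell. Of 24 genes of the tail bud and presomitic mesoderm, 14 fell and none rose, with a median of -1.27, while 3.16% of all genes fell. Cdx2, a homeobox factor that keeps axial progenitors going and is also a gut and trophoblast gene, had 1532, 1192 and 1250.2 at E8.5 and 50.2, 78.7 and 5.10 at E10.5, a change of -4.42 ± 0.31 (adjusted p = 5.8e-10). Cdx1 had 595, 519 and 549.9 at E8.5 and 1.32, 2.33 and 7.62 at E10.5, a change of -4.30 ± 0.22, and Cdx4 1146, 1073 and 1140.4 at E8.5 and 40.9, 27.3 and 47.2 at E10.5, a change of -4.17 ± 0.26. The 3 Cdx genes were thus clearly measured on every E8.5 array and dim on every E10.5 array. Nkx1-2, a marker of neuromesodermal progenitors, and Tbx6, which makes progenitors mesodermal, fell, with changes of -3.77 and -2.38. Cyp26a1, which destroys retinoic acid in the tail, went from 1857 ± 117 to 447 ± 35.5 and then 362 ± 7.63, most of it in the first day. Its departure below the midpoint was lost on leaving out any 1 of the 9 arrays of E8.5 to E10.5 (adjusted p = 0.055 to 0.15). Sp5, a Wnt target, and Fgf17 changed by -2.07 ± 0.24 and -1.33 ± 0.22. The Notch ligands Dll1 and Dll3 and the Wnt target Axin2, which other tissues also express, were not called.

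The heart was beating at both stages, and its contractile genes split. Of 28, 4 rose and 4 fell, with a median of -0.27. Nppa, the atrial natriuretic peptide of working myocardium, had 466, 453 and 345 at E8.5 and 1217, 1079 and 1173 at E10.5 and rose by 1.41 ± 0.12. Myl2, the ventricular light chain, had 2176, 2192 and 1825 at E8.5 and 5446, 4430.0 and 5537 at E10.5 and rose by 1.30 ± 0.18 (adjusted p = 5.9e-06). For Nppa, E9.5 was above the midpoint. Pln and Sln, small inhibitors of the calcium pump, rose by 2.05 ± 0.24 and 1.93 ± 0.19. Myl7, the atrial light chain that the whole heart tube expresses early, had 13619, 11489 and 12006 at E8.5 and 5079, 3548 and 4794 at E10.5, a change of -1.48 ± 0.11 (adjusted p = 1.2e-09). Ankrd1, a stretch-responsive titin partner, fell, with a change of -2.20, from 2211 ± 219 to 461 ± 60.3. Actc1, Myh6 and Myh7 were not called, with changes of -0.62 ± 0.12, -0.66 ± 0.15 and 0.05 ± 0.12.

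More heart regulators fell than rose. Of 23, 9 fell and 2 rose, with a median of -0.64. Nkx2-5, the core cardiac homeobox factor, had 522, 419 and 429.5 at E8.5 and 145, 150.4 and 225 at E10.5, a change of -1.29 ± 0.23 (adjusted p = 1.2e-04), and Myocd, Hopx and Tbx20 fell, with changes of -1.49, -1.36 and -1.25. The 2 that rose were Tbx2, of the atrioventricular canal and also limb and eye, and Isl1, of the second heart field and also neurons. Hand2 was not called (-0.14 ± 0.09). The 3 heart markers used to check the tissue (Myh6, Myh7 and Actc1) summed to 20947 to 23607 at E8.5 and 13983 to 16359 at E10.5, and the ranges did not overlap.

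The first red cells are made in the yolk sac and enter the circulation between these stages. Of the 3 embryonic globins, Hba-x had 17518, 12906 and 10881 at E8.5 and 39505, 37453 and 49595 at E10.5 and rose by 1.63 ± 0.33 (adjusted p = 5.0e-04), and Hbb-y went from 15258 ± 1418 to 37575 ± 8349, a rise of 1.28 ± 0.17. Hbb-bh1 was at 31031 ± 4061 and 50214 ± 9963, a change of 0.68 ± 0.24 that was not called. For Hbb-y E9.5 (38732) was above the midpoint, a departure that was lost without E9.5 replicate 2 or 3 (adjusted p = 0.085 and 0.050). The probe sets of the beta-like genes may bind more than 1 of them. Adult globins stayed dim, with Hba-a2 at 163 ± 31.2 and Hbb-b2 at 28.7 ± 24.01 at E10.5.

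Genes of the red cell membrane, haem synthesis and erythroid control rose in 15 of 32 cases and fell in none, with a median of 0.99. Alas2, the first and rate-limiting enzyme of haem synthesis in red cells, had 250.2, 239 and 177 at E8.5 and 1739, 1661 and 2638 at E10.5 and rose by 3.02 ± 0.21 (adjusted p = 5.4e-10). Hemgn, a nuclear protein of blood progenitors, had 162, 140.3 and 137 at E8.5 and 1521, 1552 and 2522 at E10.5 and rose by 3.42 ± 0.20. Rhag and Rhd, membrane proteins of the Rh complex, rose by 2.92 ± 0.27 and 2.64 ± 0.18, Slc4a1, the anion exchanger band 3, by 2.84 ± 0.18 and Ermap, a red cell adhesion protein, by 2.65 ± 0.33. The probe set of Slc4a1 is of the cross-binding class. E9.5 was above the midpoint for Alas2, at 1455 ± 436, and for Slc4a1. Car2, Urod and Tfrc, which other cells express too, were bright at both stages and were not called.

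GATA1, the main erythroid transcription factor, binds short sites around AGATAA, so the promoters of the 15 erythroid genes that rose were searched for these 6 letters on both strands. RefSeq (GRCm38.p6) promoters were searched at the first start listed for each gene, and not on every chromosome. They included 11 of these genes, and 5 of the 11 (45.5%) held a match within 250 bases before the start. Of all promoters searched, of the same length, 2771 of 27025 (10.3%) held a match. The 5 were Alas2, Epb42, Kel, Rhd and Trim10. Also searched were the letters CCNCNCCC, CAGCTG and CAGATG, found in 4, 1 and 2 of the 11 and in 45.6%, 12.8% and 14.48% of all promoters. A match describes the letters and is not a bound site, and a promoter without one may hold other forms. The 250 bases before the start are printed for the 3 genes with a match closest to the start, chosen after the matches were known, 5′ to 3′ on the gene's strand with the match in capitals (TTATCT is AGATAA on the other strand). Their positions are chrX:150547167-150547416 (+ strand) for Alas2, chr6:41704326-41704575 (- strand) for Kel and chr4:134864286-134864535 (+ strand) for Rhd. The match begins 86, 56 and 43 bases before the start.
Alas2: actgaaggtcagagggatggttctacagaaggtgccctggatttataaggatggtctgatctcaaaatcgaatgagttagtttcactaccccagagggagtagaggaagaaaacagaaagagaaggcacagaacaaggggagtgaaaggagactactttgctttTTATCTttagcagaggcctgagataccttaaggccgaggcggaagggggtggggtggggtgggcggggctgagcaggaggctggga
Kel: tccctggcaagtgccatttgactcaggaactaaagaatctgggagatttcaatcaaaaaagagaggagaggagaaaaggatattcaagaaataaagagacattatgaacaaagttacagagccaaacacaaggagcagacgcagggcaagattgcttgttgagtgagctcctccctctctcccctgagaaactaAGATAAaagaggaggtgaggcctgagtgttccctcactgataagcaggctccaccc
Rhd: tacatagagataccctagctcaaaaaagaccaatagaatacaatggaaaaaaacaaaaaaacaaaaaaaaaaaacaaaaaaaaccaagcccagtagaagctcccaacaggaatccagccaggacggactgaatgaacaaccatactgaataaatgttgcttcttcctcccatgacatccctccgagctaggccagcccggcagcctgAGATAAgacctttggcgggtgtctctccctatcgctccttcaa

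Genes of white blood cells rose, in several cases mainly in the second day. Of 30 macrophage, platelet and other white blood cell genes, 22 rose and none fell, with a median of 1.80. Csf1r, the receptor that macrophages need, had 129.5, 103 and 106 at E8.5, 154, 147 and 115 at E9.5 and 761, 785 and 879.8 at E10.5. It rose by 2.59 ± 0.20 (adjusted p = 2.7e-09), nearly all of it in the second day, with a departure of -1.05 ± 0.17 from the midpoint. C1qc, a complement subunit made by macrophages, had 2.27, 3.47 and 2.67 at E9.5 and 199, 121 and 155 at E10.5, a change of 2.60 ± 0.20 over both days. Ctss, a lysosomal protease, and F13a1, a transglutaminase of macrophages and platelets, rose by 2.53 ± 0.24 and 2.83 ± 0.30, with Ctss below the midpoint at E9.5. In 10 of the 30 genes E9.5 was below the midpoint and in 1 above. Among all genes that rose, 6.30% were below and 4.70% above. The 10 were 5 without E9.5 replicate 1 or 2, 6 without E8.5 replicate 1, 3 with only the 9 arrays of E8.5 to E10.5 and 4 with the 12 arrays that add E7.5. The gene above was Pf4, a chemokine of megakaryocytes and early macrophages, at 92.8 ± 32.8, 637 ± 32.8 and 1407 ± 174. Ppbp, another platelet chemokine, rose by 3.59 ± 0.29. Mpo of granulocyte precursors was not called (0.96 ± 0.27), but was without E8.5 replicate 3 or E10.5 replicate 1 (1.09 and 1.12).

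**Figure D4:**
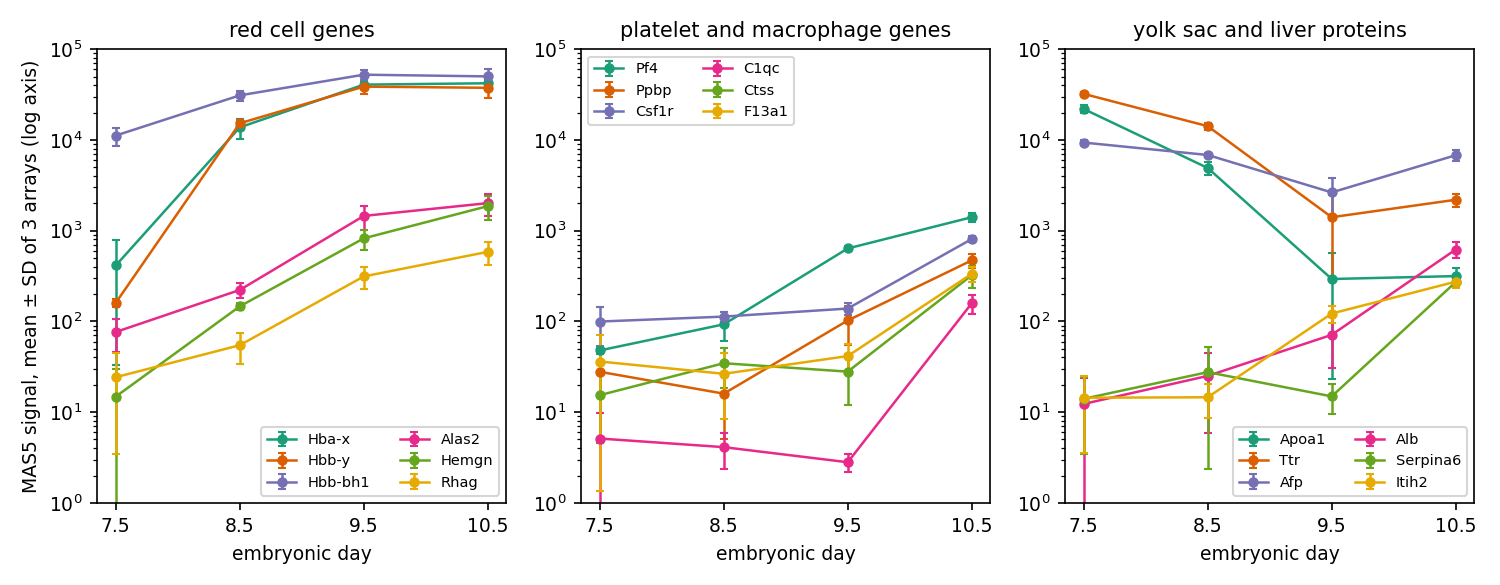
Mean MAS5 signal ± SD of 3 arrays a stage (log axis, bars that reach below 1 are clipped) by embryonic day for red cell genes, platelet and macrophage genes, and yolk sac and liver proteins. Alas2 climbs by E9.5, Csf1r and C1qc climb after E9.5, and Apoa1 falls while Alb rises.

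Endothelial genes divided. Of 32, 7 rose and 1 fell, with a median of 0.26. Vwf and Mmrn1, clotting proteins stored in endothelium, rose by 2.09 ± 0.23 and 1.91 ± 0.21, and the surface proteins Emcn and Cd34 by 1.56 ± 0.23 and 1.52 ± 0.14. E9.5 was above the midpoint for Cd34, at 249.8 ± 33.7, 774 ± 9.35 and 764 ± 69.7. Etv2, which starts the blood and vessel lineage and then switches off, had 857, 783 and 748 at E8.5 and 95.4, 113 and 115 at E10.5 and fell, with a change of -2.62 (adjusted p = 1.0e-07). Aplnr and Ramp2 were not called.

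Many genes of connective tissue matrix rose. Of 46 genes, 24 rose and none fell, with a median of 1.10. Col3a1, a fibrillar collagen of loose tissue, had 1817, 1739.9 and 1460.3 at E8.5 and 15265, 13882 and 15625 at E10.5 and rose by 3.14 ± 0.15 (adjusted p = 3.0e-12), with E9.5 above the midpoint at 10236 ± 1482. Mfap4 and Fbln5, of elastic fibres, rose by 3.38 ± 0.19 and 2.50 ± 0.26, Lox, which crosslinks collagen and elastin, by 2.58 ± 0.25 and Pcolce, which helps cleave procollagen, by 2.58 ± 0.09. The basement membrane collagen Col4a1 (0.21 ± 0.11) and the heparin-binding growth factors Mdk and Ptn, bright at both stages, were not called. Of 18 cartilage precursor genes 5 rose and 1 fell. Col11a1, Col9a1 and Sox5 rose by 2.18 ± 0.16, 1.52 ± 0.12 and 1.56 ± 0.16. Sox9, the master factor of cartilage, was at 371 ± 70.9 and 727 ± 51.8 and missed the 2-fold minimum (0.94 ± 0.22), which it met without E8.5 replicate 1 (1.08). Col2a1, the main cartilage collagen, met it narrowly (1.00 ± 0.30) and missed it without E8.5 replicate 3 (0.97) or E10.5 replicate 1 (0.96).

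Genes of the endoderm outside the embryo fell. Of 38 genes of the visceral and yolk sac endoderm, the epithelium that feeds the early embryo, 28 fell and none rose, with a median of -1.61. Amn and Cubn, the pair that takes up proteins and vitamins from the surrounding fluid, had 1053, 815 and 837 at E8.5 and 14.2, 8.89 and 33.5 at E10.5 and 1182, 921 and 1065 at E8.5 and 161, 41.1 and 21.1 at E10.5, with changes of -4.40 ± 0.25 and -3.68 ± 0.54. Apoc2 and Apoa1, apolipoproteins, changed by -4.54 ± 0.37 and -3.86 ± 0.35, and Ttr, a thyroid hormone carrier, by -2.69 ± 0.30. S100g, a calcium-binding protein, had 824, 463 and 443 at E8.5 and 3.51, 2.31 and 2.88 at E10.5. Probe sets of Apoa1, Apoa4 and Ttr are of the cross-binding class. In 19 of the 38 E9.5 was below the midpoint and in none above. Among all genes that fell, 13.96% were below and 1.35% above. The 19 were 14 with only the 9 arrays of E8.5 to E10.5 and 16 to 23 on leaving out an array. Apom was at 1719.5 ± 459, 132 ± 73.6 and 191 ± 34.03, and Slc13a4, a sulphate transporter, at 679 ± 167, 31.8 ± 16.8 and 38.1 ± 24.4. Neither was higher at E9.5 than at E10.5.

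Summed markers of extraembryonic and maternal tissue were lower at E10.5, though single markers went both ways. The 12 yolk sac endoderm markers used to check the tissue summed to 34982 to 39039 at E8.5, 3243 to 8956 at E9.5 and 9319 to 10728 at E10.5, and at E9.5 the third array was the highest. Afp and Ttr, which are also in the liver bud list, made up most of this sum at E10.5. Their means were 2641 and 1408 at E9.5 and 6788 and 2192 at E10.5. The 7 trophoblast markers on the array summed to 2593 to 2778 at E8.5 and 803 to 965 at E10.5, and 8 markers of maternal decidua to 3187 to 4753 and 1746 to 1949. Cdx2 and Hand1, which the embryo itself expresses, made up most of the trophoblast sum at E8.5, while Elf5 went from 62.7 to 27.6, Ascl2 from 69.3 to 23.5 and Tpbpa was below 25.9 at both stages. The E8.5 and E10.5 ranges did not overlap for any of the 3 tissues, and 0 to 5 markers of a tissue were below 25.9 on an array. Of the 8 decidual markers Prl8a2, Cryab and Bmp2 fell, while Hoxa10, which the embryo itself expresses, rose and the means of Wnt4, Des, Igfbp1 and Prl3c1 were higher at E10.5. Cryab lost its call without E10.5 replicate 1 (-0.96). Of 15 tested genes of the decidua list 2 rose and 3 fell, with a median of 0.18, and of 18 of the trophoblast list 1 rose and 3 fell, with a median of -0.66. Phlda2, Prl8a2 and Rhox6, of placenta or decidua, fell, with Prl8a2, a prolactin relative made by decidual cells, at 2661, 747 and 1050.1 at E8.5 and 24.02, 44.9 and 32.4 at E10.5. Its E8.5 replicate 1 was the highest. The part of these tissues in the falls of yolk sac, epithelial and trophoblast genes was not tested.

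The liver bud list held genes of both endoderms, and 6 of 27 rose while 10 fell. Alb, albumin, which hepatoblasts make, had 21.01, 46.02 and 8.18 at E8.5 and 533, 567 and 760.2 at E10.5 and rose by 3.72 ± 0.29 (adjusted p = 4.2e-09). Itih2 and Vtn, plasma proteins, rose by 2.89 ± 0.18 and 2.59 ± 0.13, and Dlk1, a surface protein of hepatoblasts and mesenchyme, by 1.08 ± 0.13, a call lost without E8.5 replicate 3 (0.96) or E10.5 replicate 1 (0.95). Afp, made by yolk sac and liver, was at 6830.1 ± 353, 2641 ± 1169 and 6788 ± 958, near each other at the ends and lowest between. Of the 10 that fell, Apoa1, Tdo2, Ttr, Rbp4, Apob and Hnf4a had the largest changes, from -3.86 to -2.04, and all but Tdo2 also stood in the yolk sac list. In the gut, lung, thyroid and pancreas list 5 of 28 rose and 11 fell. Nepn, of foregut and midgut, had 1139, 974 and 899 at E8.5 and 33.4, 53.1 and 54.2 at E10.5, a change of -3.83 ± 0.28. Cldn6, a tight junction protein of early epithelia, fell, with a change of -1.96, and Ptf1a, of pancreas and dorsal neural tube, rose by 2.21 ± 0.30. In the kidney and gonad list 6 of 22 rose and 4 fell. Gdnf, the ligand that draws out the ureteric bud, had 13.3, 13.4 and 11.9 at E8.5 and 119, 140.1 and 93.6 at E10.5 and rose by 1.88 ± 0.36, and its receptor Gfra1 rose by 2.51 ± 0.24.

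Epithelial genes fell in 10 of 32 cases and rose in 2, with a median of -0.42. Krt8 and Krt18, the keratin pair of simple epithelia, had 8721, 6115 and 6656 at E8.5 and 1391, 1082 and 1129 at E10.5 and 8792, 7813 and 8091 at E8.5 and 1602, 1626 and 1676 at E10.5, with changes of -2.54 ± 0.13 and -2.31 ± 0.07. Krt19, Spint1 and Prss8 fell, with changes of -2.10, -1.92 and -1.89. Cdh1, the epithelial cadherin, was at 1169 ± 235 and 605 ± 147 and was not called (-0.93 ± 0.17), but was without E8.5 replicate 1 or E10.5 replicate 2 or 3 (-1.10, -1.02 and -1.05).

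Genes of early pluripotent and growing embryonic cells fell in 9 of 30 cases and rose in 1, with a median of -0.46. Lin28a, an RNA-binding protein that blocks the let-7 microRNAs, had 15195, 13799 and 14048 at E8.5, 5932, 5747 and 5877 at E9.5 and 1179.6, 1044 and 795 at E10.5, and fell, with a change of -3.82 (adjusted p = 1.3e-11). Sall4, Dnmt3b and Pou5f1 changed by -2.54 ± 0.23, -1.91 ± 0.17 and -1.69 ± 0.38. In the list of the Lin28 and let-7 axis 4 of 13 fell and 1 rose. Nr6a1, an orphan nuclear receptor of trunk development, had 4248, 4825 and 4161 at E8.5 and 214, 189.9 and 164 at E10.5, a change of -4.37 ± 0.19, and Trim71 and Arid3b fell, with changes of -2.13 and -1.93. Hmga2 and Igf2bp3, which the let-7 axis also acts on, were bright at both stages and not called, with changes of 0.02 ± 0.18 and -0.01 ± 0.07. Prtg, a surface protein of the immunoglobulin family, had 8593, 8574 and 8507 at E8.5, 4282, 4047 and 4046 at E9.5 and 605, 441 and 392 at E10.5. Its E9.5 value lay 1.01 ± 0.11 above the midpoint, so most of its fall, on the log2 scale, came in the second day. Prtg was 1 of the 6 fallen genes called above the midpoint.

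Lists of signalling pathways held calls in both directions. Of all genes tested, 8.48% rose and 3.16% fell. The share that rose was not above that of all genes in the FGF, BMP and TGF-beta, and hedgehog lists. Of 27 FGF genes 8 fell and 1 rose, with a median of -0.42. The ligands Fgf3, Fgf17, Fgf18 and Fgf15 changed by -2.35 ± 0.29, -1.33 ± 0.22, -1.28 ± 0.39 and -1.23 ± 0.18, and Etv4, which FGF signals switch on, had 289, 269 and 212 at E8.5 and 103, 28.9 and 18.6 at E10.5, a change of -2.04 ± 0.35. The feedback inhibitors Dusp6 and Spred1 and the receptor Fgfr2 were not called. In the Wnt list 8 of 42 rose and 5 fell. Rspo2, which amplifies Wnt signals in limb and other buds, had 75.4, 41.9 and 54.96 at E8.5 and 646, 676 and 679.7 at E10.5 and rose by 3.08 ± 0.18, and the ligand Wnt7b rose by 1.97 ± 0.17. The secreted inhibitor Sfrp5 changed by -1.91 ± 0.28. In the BMP and TGF-beta list 3 of 36 rose and 4 fell, with Id4, an inhibitor of helix-loop-helix factors, at 515, 496 and 545 at E8.5 and 4147, 3712 and 4167 at E10.5 (2.89 ± 0.17), the receptor Bmpr1b at 1.96 ± 0.20, and the ligand Bmp2 and the antagonist Fst at -1.84 ± 0.17 and -2.08 ± 0.14. Among 18 retinoic acid genes Aldh1a1, a synthesis enzyme, and Cyp26b1, a breakdown enzyme, rose by 2.41 ± 0.23 and 1.35 ± 0.17, while Cyp26a1 and Rbp4 fell. Of 16 hedgehog genes, Gas1, a co-receptor, rose by 1.11 ± 0.19 and Foxa2 and Ihh fell, and the target and receptor Ptch1 was not called (-0.73 ± 0.10). Gas1 lost its call without E8.5 replicate 1 or E10.5 replicate 2 (0.93 and 0.98), and Ihh (-1.01) without E8.5 replicate 3, E10.5 replicate 1 or E10.5 replicate 3 (-0.89, -0.80 and -0.93). The call of Fgf18 was lost without E10.5 replicate 3 (-0.63).

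More glycolysis and hypoxia genes fell than rose. Of 29, 8 fell and 1 rose, with a median of -0.74. The glucose transporters Slc2a3 and Slc2a1 had 23835, 22311 and 22411 at E8.5 and 3826, 3627 and 3795 at E10.5 and 20376, 18400.5 and 19237 at E8.5 and 4745, 5204 and 5396 at E10.5, with changes of -2.60 ± 0.08 and -1.91 ± 0.10 (adjusted p = 5.6e-15 and 4.7e-12). Slc16a3, the lactate exporter, and Hk2, the first enzyme of the pathway, fell, with changes of -1.85 and -1.51. Ldhb rose by 2.16 ± 0.13 while Ldha, the other lactate dehydrogenase subunit, changed by -0.87 ± 0.11 and was not called. Of 32 subunits of oxidative phosphorylation none was called, with a median of 0.15 that was 0.03 under 75th percentile scaling and 0.24 under quantile normalization.

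Growth and housekeeping genes gave a baseline. Of 34 replication and mitosis genes 2 rose, both inhibitors of the cell cycle: Cdkn1c had 4169.8, 3556 and 3474 at E8.5 and 11259, 11190.5 and 10936 at E10.5 and rose by 1.57 ± 0.13, and Cdkn1b rose by 1.11 ± 0.12, a call that was lost under both other scalings. The median of that list was -0.18, and Pcna and Mcm7 changed by -0.19 ± 0.12 and -0.32 ± 0.08. None of 13 common reference genes was called, with Actb at -0.17 ± 0.17 and Eef1a1 at -0.14 ± 0.20. Of 28 ribosomal protein genes 2 fell, Rps27 and Rpl12, which had the lowest signals of the list at E8.5 (578 ± 161 and 1206 ± 108). Scaling each array by its 75th percentile moved the median of all genes from 0.05 to -0.05, and all small medians move with it. In the imprinted list 5 of 20 rose and 1 fell: Nnat rose by 1.54 ± 0.07, Plagl1 by 1.07 ± 0.15 (0.97, not called, without E10.5 replicate 3), and Phlda2 was the fall, while Mest and Grb10 were not called. Of 24 immediate early and heat shock genes 4 rose and 1 fell, with Jun at 649, 612 and 438 at E8.5 and 1734, 1460.2 and 1774 at E10.5 (1.52 ± 0.13).

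The pools were of mixed sex, and genes that mark sex differed between arrays. Eif2s3y, a Y-linked gene that all male cells express, had 334, 302 and 422 at E8.5, 739, 413 and 669 at E9.5 and 119.9, 289 and 63.3 at E10.5, and its change was -1.23 ± 0.29 (adjusted p = 0.0019). Without E10.5 replicate 3 its call was lost (-0.81). E10.5 replicates 1 and 3 were the lowest of the 9 arrays. Kdm5d and Uty, also Y-linked and outside the naming rule, changed by -0.74 ± 0.33 and -0.61 ± 0.32. Neither was called (adjusted p = 0.079 and 0.14), and E10.5 replicates 1 and 3 were the lowest for both. Xist, which female cells express and which was added after the values were seen, had 1508, 1486 and 1093 at E8.5 and 3472, 1669.5 and 2599 at E10.5. For Xist E10.5 replicates 1 and 3 were the highest of the 9 arrays, and its change of 0.86 ± 0.33 was not called. For these Y-linked genes and Xist, stage and the sex of the pools cannot be told apart. The part of sex in the other results, among them those of other genes on X such as Alas2, was not tested.

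**Figure D5:**
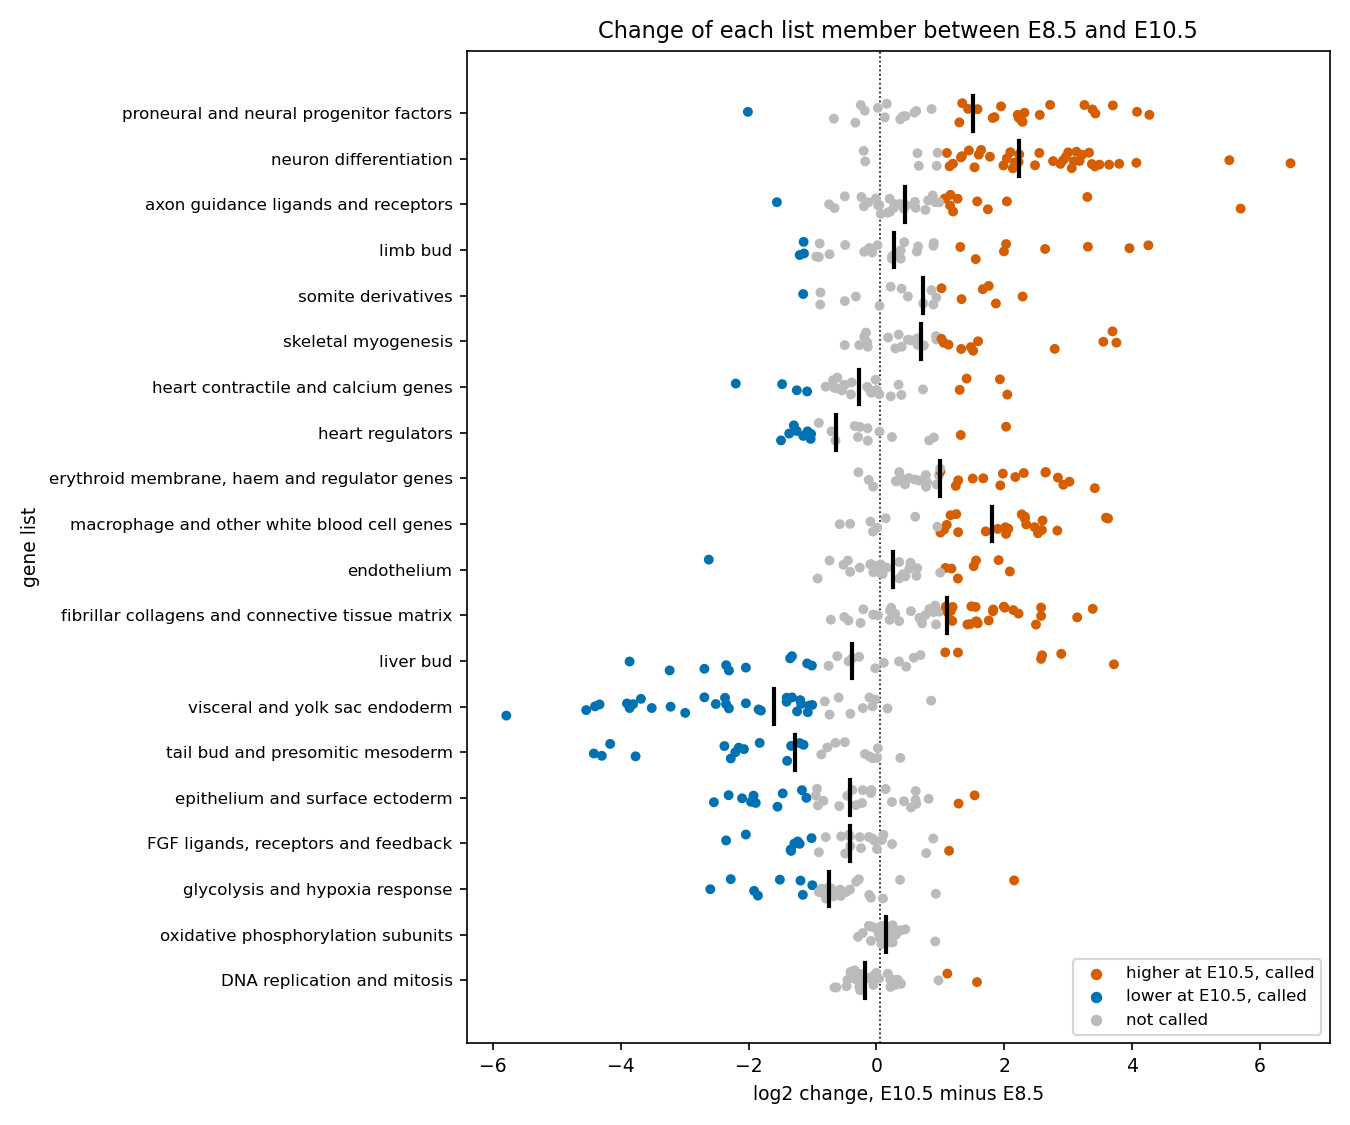
Change from E8.5 to E10.5 (log2) of every measured member of 20 lists (points, coloured where called) with the median of the list (bar) and of all genes (dotted line, 0.05). Neuron, proneural, white blood cell and matrix lists lie to the right, yolk sac endoderm and tail bud lists to the left, and oxidative phosphorylation at the line.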

How the data were processed

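The values that the authors deposited are MAS5 intensity signals, 1 for each probe set (tool per the submitters' processing notes, version not stated). On each array the mean without the lowest and highest 2% was 500.0. RNA was extracted with a lipid tissue kit and given a biotin label with a one-cycle kit, per the labels' protocols. Of 45101 probe sets (64 controls), the 34945 with 1 gene symbol in GEO's platform annotation were used, and 932 with several and 9224 with none were left out. The annotation can be old: Entrez identifiers of 34741 matched RefSeq, which changed 0 symbols. A gene took its probe set with the highest mean log2(signal + 25.9) over the 20 arrays, where 25.9 is the median over arrays of their 25th percentile. Genes above the array's median on at least 2 arrays (14044 of 18193) were tested, each stage having its own mean, with limma 3.58.1 and R 4.3.3 (eBayes with trend, 12 residual degrees of freedom, two-sided, Benjamini-Hochberg). All 20 arrays share the estimate of spread. Arrays give no depth, and their number limits the precision. P-values measure the spread between pools of embryos. Replicates 2 and 3 deviated from the stage mean no more alike with their own number than with each other, while those numbered 1 deviated alike over E7.5 to E10.5. The replicate number was not in the main fit, and fits with a replicate block are given below. The fit was also tested on simulated data.

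Genes named are the 15 largest rises and falls among called genes without overlap, up to 6 called and 3 bright uncalled members a list, all members of lists of at most 6, the marker genes, and the 5 largest departures of E9.5 each way. Probe sets of the _x_at class and uncharacterised loci were left out of the first and last. The comparison, lists and members were chosen with earlier results of these data known. The alternatives were other scalings, pseudocounts, filters, probe set rules and array sets, the replicate block, and leaving out each array.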

Additional observations from a re-analysis of the deposited data

How the results depend on the processing

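None of the called genes with a value changed sign under any alternative. All 1635 had one except where probe sets of a gene were averaged (1536) or the stricter filter was used (1059), and 1331 stayed called under quantile normalization, 1471 under 75th percentile scaling, 880 at the larger pseudocount and 1204 with averaged probe sets. The counts of risen and fallen genes (1191 and 444) were 913 and 482 under quantile normalization and 1028 and 533 under 75th percentile scaling. A pseudocount 4 times larger called 880 genes (640 up, 240 down), a filter at the 75th percentile 1059 (740 up, 319 down), and no minimum fold 5651 (3364 up, 2287 down), with 604 list members in place of 365. Leaving out an array of either stage gave 1602 to 1709 calls, 1148 to 1277 up and 432 to 466 down.

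The position of E9.5 depended more on the fit. The 331 departures (78 above, 253 below) were 213 under quantile normalization (154 below). They were 171 with the 9 arrays of E8.5 to E10.5 (113 below). With the 12 arrays that add E7.5 they were 169 (47 above, 122 below), at 8 residual degrees of freedom. Using only replicates 2 and 3 of E7.5 to E10.5 beside the later arrays, they were 439 (100 above, 339 below), also at 8. Arrays of E12.5 to E18.5 correlated at r = 0.983 to 0.991 within a stage, those of E7.5 to E10.5 at 0.977 to 0.985. The main fit takes its spread from all 20 arrays, and why the counts differ was not tested. Departures above numbered 154 with no minimum departure, and all departures 231 to 339 on leaving out an array.

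Over E7.5 to E10.5 the deviations of replicates numbered 1 correlated at r = 0.14 to 0.28 with each other and -0.18 to -0.055 with other numbers, while replicates 2 and 3 gave 0.026 to 0.094 with their own number and 0.027 to 0.097 with each other. Numbers 2 and 3 were therefore not taken to pair the pools, and what replicate 1 shares is not in the labels. Replicate 1 also had the lowest median signal at each of these stages, at 67.2, 69.0, 67.5 and 79.9. With the replicate block the calls were 1189 up and 440 down with 12 arrays and 1195 and 445 with all, and the departures 207 (150 below) and 364. Using only replicates 2 and 3 of the 4 earliest stages, chosen after the data were seen, gave 1259 up and 451 down.

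Dim genes are limited by the array: a signal near 25.9 has no reliable fold, and the calls of 24 named genes were lost at the larger pseudocount.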

Other observations

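Among genes of no list, E9.5 stood highest above the midpoint in Cp, the copper carrier ceruloplasmin, with signals of 7.29, 5.03 and 19.9 at E8.5, 157, 167 and 168 at E9.5 and 168, 32.5 and 158 at E10.5, a departure of 1.49 ± 0.28 (adjusted p = 0.0032). Its E10.5 arrays disagreed, replicate 2 being far below the others. Mrap, an accessory protein of the ACTH receptor, was at 30.8 ± 33.2, 206 ± 23.8 and 115 ± 12.1 (SD, n = 3), highest at E9.5. Slc2a2, the glucose transporter of liver and yolk sac, had 784, 680.1 and 581 at E8.5, 4.17, 7.11 and 109 at E9.5 and 30.2, 30.2 and 64.2 at E10.5. Its E9.5 replicates 1 and 2 were below every E10.5 array, and replicate 3 was above them all. Car7, a cytosolic carbonic anhydrase, had 1338, 1064 and 903 at E8.5 and 24.2, 76.6 and 70.7 at E10.5, a change of -3.81 ± 0.26. Pantr1 was at 113 ± 17.4, 1034 ± 126 and 3109.5 ± 275, above the midpoint at E9.5 (adjusted p = 0.025), which was lost without E8.5 replicate 2, E10.5 replicate 2 or E9.5 replicate 1 or 3.

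The 4 motifs were searched in the promoters of risen members of 4 lists, 16 shares in all. Apart from the erythroid list, the letters CAGATG stood in 7 of 26 promoters of risen neuron genes (26.9%, against 14.48% of all promoters) but in 1 of 19 of risen proneural factors (5.26%), and CAGCTG in 1 of 6 of risen skeletal muscle genes, against 12.8%. CCNCNCCC stood in 17 of 19 promoters of risen proneural factors (89.5%) and 20 of 26 of risen neuron genes, against 45.6% of all. No test was made of these shares.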
